A study of Carassius auratus with 9 samples.

Results

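Translation initiation and elongation factors load a ribosome onto an mRNA, find its start codon and then carry it along the coding sequence. Their transcripts were followed in muscle of Hefang crucian carp (HCC, Carassius auratus). The genes described here are those whose description names a eukaryotic translation initiation factor, or begins with elongation factor 1 or elongation factor 2, with 4E-binding proteins and kinases left out. This rule took 141 of the 76298 genes in the deposited table, and they were assigned to 39 factors or subunits by their descriptions. Of the 141 genes, 124 passed a filter on low counts and were tested. The other 17 did not pass, and 3 of them had no count in any library. The RNA helicase eIF4A carries a description without the word translation, so its genes lie outside the rule and are given only with the neighbouring pathway genes.

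HCC received for 8 weeks the basal diet with no added methionine (Met) or lysine (Lys), here the LA group, the basal diet with 1.7% Met and 3.4% Lys, the MA group, or the basal diet with 3.4% Met and 3.4% Lys, the HA group. The MA and LA diets thus differ in both amino acids, whereas the HA and MA diets differ in Met alone. Poly(A) RNA of muscle was sequenced in 9 libraries, of which each diet has 3 (LA1 to LA3, MA1 to MA3 and HA1 to HA3). The study calls the libraries of a diet biological replicates, but whether a library holds 1 fish or a pool is not given in the sources used here, so the p-values measure the spread between these libraries.

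In initiation, eIF2 with GTP brings the initiator methionyl-tRNA to the small ribosomal subunit, eIF3 holds the subunit and the other factors together, and eIF4E on the mRNA cap recruits them through the scaffold eIF4G. In elongation, eEF1A delivers each aminoacyl-tRNA, the eEF1B complex of eEF1 beta, delta and gamma recharges eEF1A with GTP, and eEF2 moves the ribosome to the next codon. In muscle, dietary amino acids are known to act on this machinery mainly by phosphorylation, through mTORC1 and the 4E-binding proteins and through the kinases of eIF2, which slow initiation when amino acids are short.

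Total counts ranged from 13962770 to 17177610 per library. Levels are given as TMM-adjusted FPKM, that is reads scaled by gene length and by library size, with the library size corrected by its TMM factor (0.890 to 1.15). The LA1 and HA2 libraries, from different diets, were the most alike of any pair, with a median absolute log2 difference of 0.12 over the 124 translation factor genes and 0.27 over all 23946 genes tested. LA1 and LA2, from the same diet, differed by 0.60 and 0.67 on these measures. Library 3 of a diet lay between libraries 1 and 2 of that diet for 62.1% to 75.8% of the translation factor genes, against 53.3% to 62.1% of all genes. The share of reads mapped, as the study tabulates it, was lowest in LA1, MA2 and HA2, highest in LA2, MA1 and HA1 and between these in library 3 of each diet. This order runs across the diets, and its part in the levels was not tested. The medians over the genes and the log2 fold changes that moved most without LA1 or HA2 are given with and without them.

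Fast skeletal muscle markers, of which 47 of 61 were tested, summed to 174446 to 185552 FPKM in the LA group, 139989 to 189206 in the MA group and 133603 to 182408 in the HA group, so the tissue label holds. Markers of some other cells differed between the diets. Nerve and Schwann cell markers (22 of 32 tested, 5 at 0 in every library) summed to 173.8 to 215.2 FPKM in the MA group, above the LA group at 105.4 to 121.4 and the HA group at 114.2 to 136.1. Slow muscle markers (5 of 32 tested, 1 at 0) summed to 50.7 to 120.2 FPKM in the MA group and 40.4 to 72.3 in the HA group, above the LA group at 21.4 to 36.2. Leukocyte markers (14 of 65 tested, 32 at 0) summed to 29.1 to 29.6 FPKM in the MA group and 30.4 to 32.2 in the HA group. The LA group was at 32.7, 93.8 and 72.0 FPKM in LA1 to LA3, so LA1 lay close to the HA libraries. The sums of fibroblast, erythrocyte, adipocyte, skin and endothelium markers overlapped between the LA group and each supplemented diet. Between the supplemented diets, fibroblast and tendon markers (17 of 24 tested, 2 at 0) did not overlap. They summed to 437.6 to 564.9 FPKM in the MA group and 291.6 to 428.9 in the HA group. edgeR called no gene of the nerve, slow muscle, leukocyte or fibroblast lists in any pair of diets. Of the 47 fast skeletal muscle markers it called 1 higher and 1 lower in MA against LA (0.0835% of all genes called). In HA against MA it likewise called 1 higher and 1 lower (0.0543%), and in HA against LA none. Their median log2 fold change was -0.05 in MA against LA and -0.27 in HA against MA. In HA against LA it was -0.30, with 6 markers above 0 and 41 below. The part of these cells in the results below was not tested. In whole muscle, fewer cells of a type and less RNA per cell cannot be told apart.

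Elongation factors made up most of the transcript pool. Summed over all copies, eEF1A held 46.2% of the FPKM of the 141 genes, averaged over the 9 libraries, followed by eEF2 with 15.1%, eEF1 beta with 8.11%, eEF1 delta with 7.38% and eEF1 gamma with 5.61%. The most abundant initiation factors were eIF1B, a close relative of eIF1, which keeps the scanning subunit from starting at a wrong codon, with 2.85%, and eIF2 gamma, the GTP-binding subunit of eIF2, with 1.62%. eIF5A, which relieves ribosomes stalled at proline runs and carries the modified lysine hypusine, held 2.62%. Among cap-binding factors the levels were lower: eIF4E averaged 25.8 ± 8.14 FPKM in the LA group, 19.4 ± 0.455 in the MA group and 29.3 ± 5.598 in the HA group (SD, n = 3 each). The scaffold eIF4G1 averaged 13.9 ± 4.17, 12.6 ± 1.33 and 16.98 ± 0.358 FPKM in the LA, MA and HA groups (SD, n = 3 each). At the low end, both genes of eIF4E-1B, known in fish and mammals from the oocyte, stayed under the count filter, with 23 and 14 counts over all libraries.

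**Figure D1:**
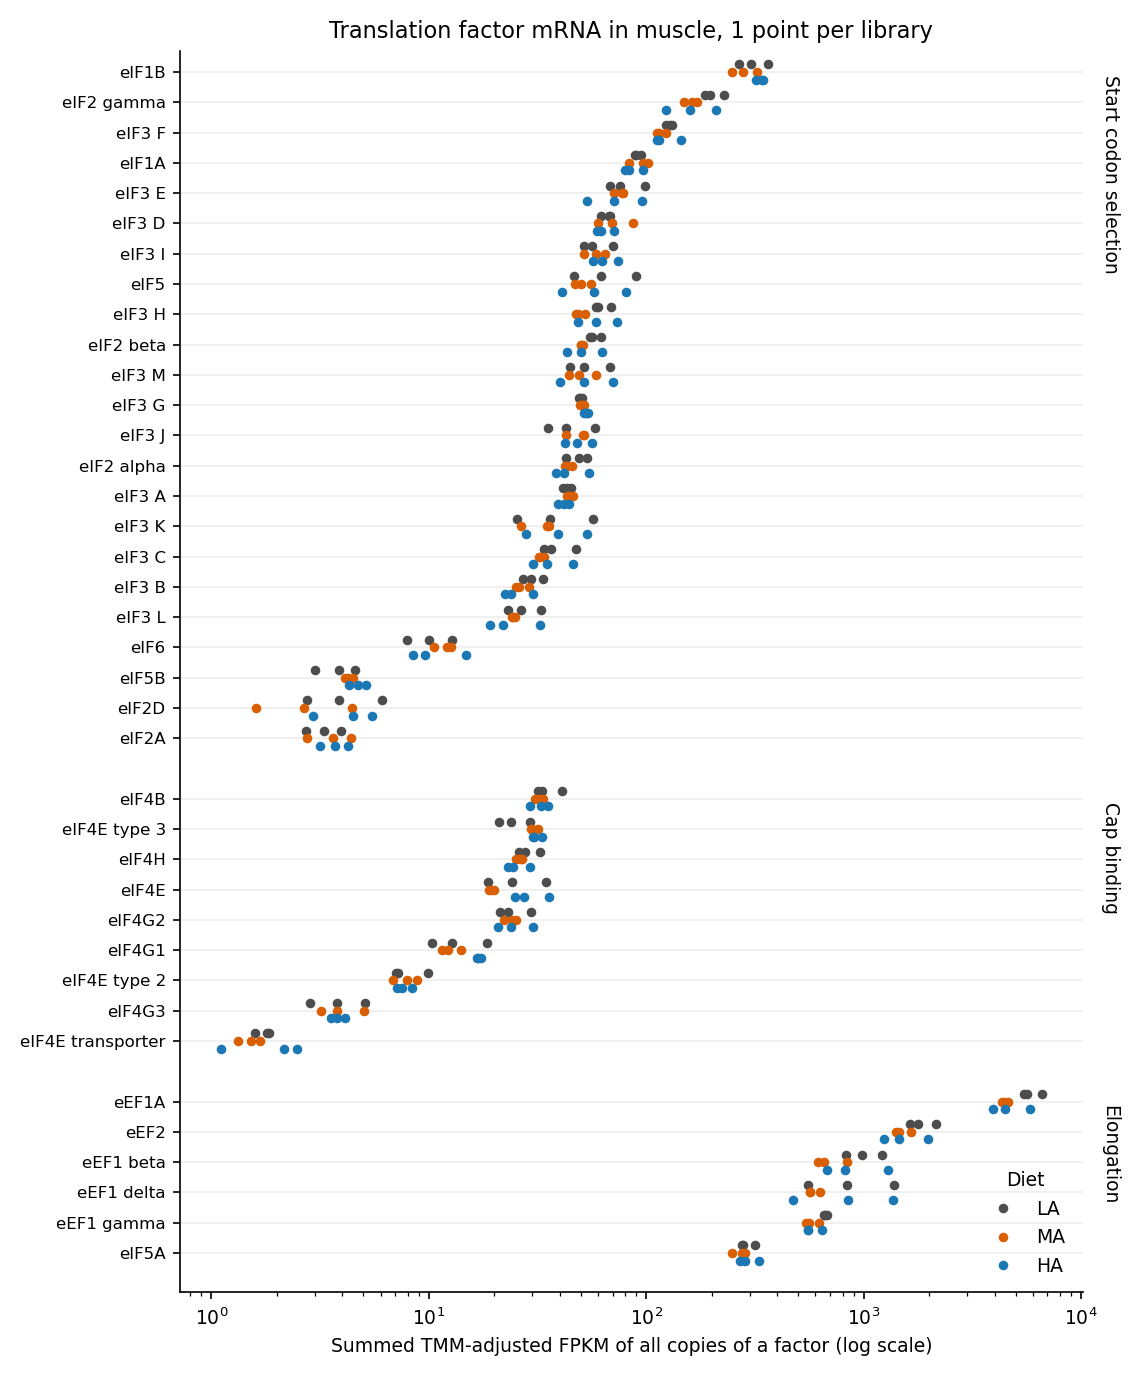
Summed TMM-adjusted FPKM of each of the 38 factors with a tested copy, on a log scale, with 1 point per library coloured by diet and factors ordered by level within each role. eEF1A lies between 3928 and 6582 FPKM and eEF2 between 1237 and 2158, above every initiation factor, and within most factors the libraries of the 3 diets overlap.

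The pool rested on few gene copies. Goldfish and its relatives descend from a fish whose whole genome was doubled, and many genes are therefore present as pairs on matching linkage groups. In the assembly used by the deposited table (ASM336829v1), copies of a factor on different numbered linkage groups formed 98 pairs, and in 45 of these the numbers of the linkage groups differed by exactly 25. Summing the copies on each linkage group gave 29 such pairs of linkage groups over 24 factors. In 22 of the 29 pairs the same side was higher in all 9 libraries, the median ratio of the higher to the lower side was 2.77, and in 10 pairs the ratio reached 4 or more. The higher side was the lower-numbered linkage group in 15 pairs, so the leading copies were not all on 1 side.

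The widest gaps were in the elongation factors. The eEF2 gene LOC113049148 on chromosome 30 (10096427-10103473) averaged 1574 FPKM, against 10.1 FPKM for LOC113078074 on chromosome 5, a ratio of 155. For eEF1A, the 2 genes on chromosome 19 summed to 4909 FPKM and the 2 on chromosome 44 to 115, a ratio of 42.6. On both chromosomes the eEF1A genes are neighbours: LOC113119292 (chromosome 19, 7717648-7721699) and LOC113119291 lie 226 bases apart, and LOC113062123 and LOC113062124 on chromosome 44 lie 1095 bases apart. LOC113119292 alone gave 96.3% of eEF1A and LOC113049148 96.1% of eEF2. The other 8 genes described as eEF1A, among them all those described as 1-alpha 1 or 1-alpha 2, stayed under the count filter. In mammals the eEF1A2 gene is the one used by adult muscle. In contrast, the eEF1 beta genes LOC113093624 and LOC113050788 on chromosomes 6 and 31 stood at 407 and 474 FPKM, a ratio of 1.16.

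**Figure D2:**
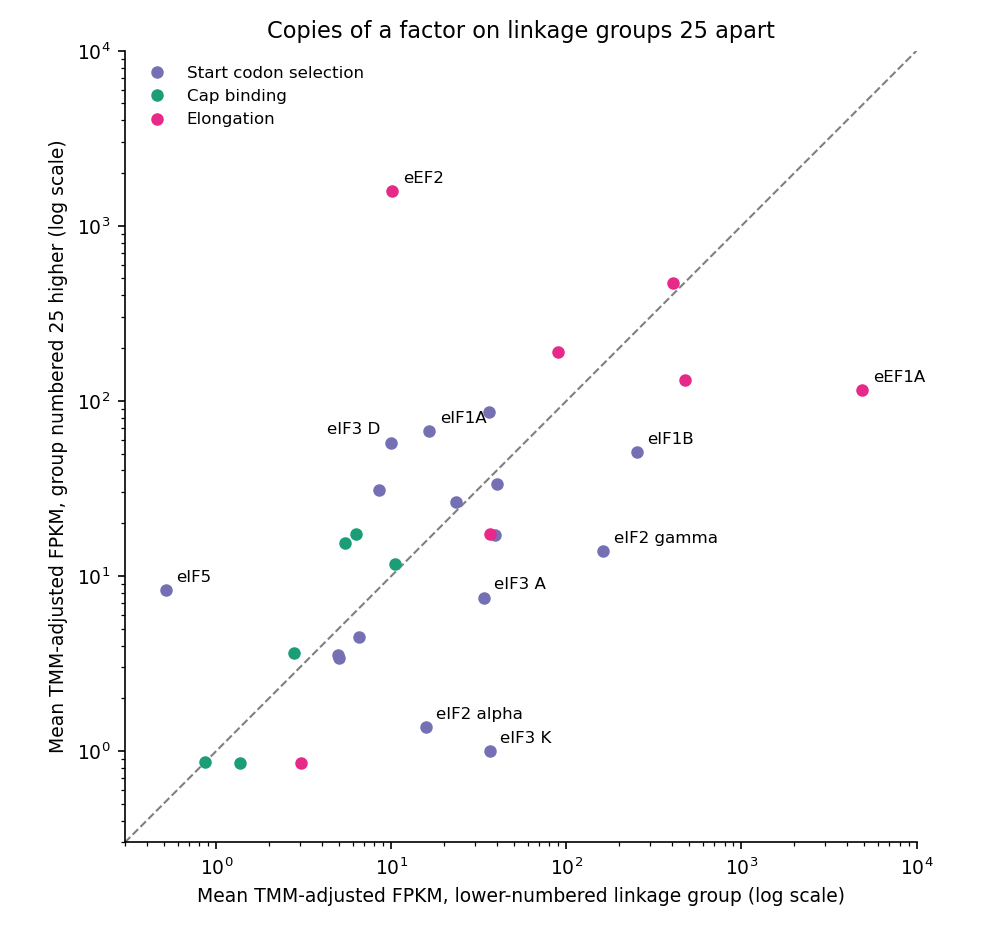
Mean TMM-adjusted FPKM over 9 libraries of the copies of a factor on a linkage group (x axis) and on the group numbered 25 higher (y axis), both on log scales, for 29 pairs coloured by role, with the line of equal levels. eEF2 lies far above the line (10.1 and 1574 FPKM) and eEF1A far below it (4909 and 115 FPKM), while the eEF1 beta pair lies near it.

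The question of the first comparison is whether adding Met and Lys together went with a change in these transcripts. None of the 124 genes passed the test in MA against LA: 0 had an edgeR adjusted p under 0.05, where 0.0835% of all genes did. At an unadjusted p under 0.05, 6 were higher in the MA group (5.3% of all genes) and 9 were lower (6.18% of all genes). DESeq2 called 1 of the 124 (1.84% of all genes). The 3 MA libraries lay above all 3 LA libraries for 8 genes (8.27% of all genes) and below them for 18 genes (8.43% of all genes), which is 14.5% of the 124. The median log2 fold change was -0.16 over the 124 genes and -0.03 over all genes, with 41 genes above 0 and 83 below. Without LA1 the median was -0.01, so it rests on that library. The counts at an unadjusted p also moved with single libraries: without LA2 or LA3 the higher count was 3, and without LA1 it was 8. The lower count was 5, 4 or 3 without LA3, MA2 or MA3, and 12 without LA2 or without MA1. For fits without single libraries, in this and the other comparisons, the shares over all genes were not computed.

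By role, the elongation factor genes had a median log2 fold change of -0.37 in MA against LA (3 of 24 above 0), the start codon group, which takes in eIF1, eIF2, eIF3, eIF5 and eIF6, had -0.13 (25 of 66 above 0), and the cap-binding group -0.10 (13 of 34 above 0). Without LA1 these medians were -0.33, 0.03 and 0.08, so 2 of them changed sign. In HA against LA the elongation median was -0.24, at -0.09 without LA1, -0.08 without HA1, -0.46 without HA2 and -0.35 with neither. The elongation genes summed to 8351, 8045 and 7900 FPKM in MA1 to MA3, against 12332, 9398 and 10137 FPKM in LA1 to LA3. The MA libraries thus lay below all LA libraries, also below the LA2 and LA3 libraries alone. In the HA group the same sum was 7134, 11405 and 8444 FPKM, with HA2 between LA1 and LA3 and HA1 below every other library.

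**Figure D3:**
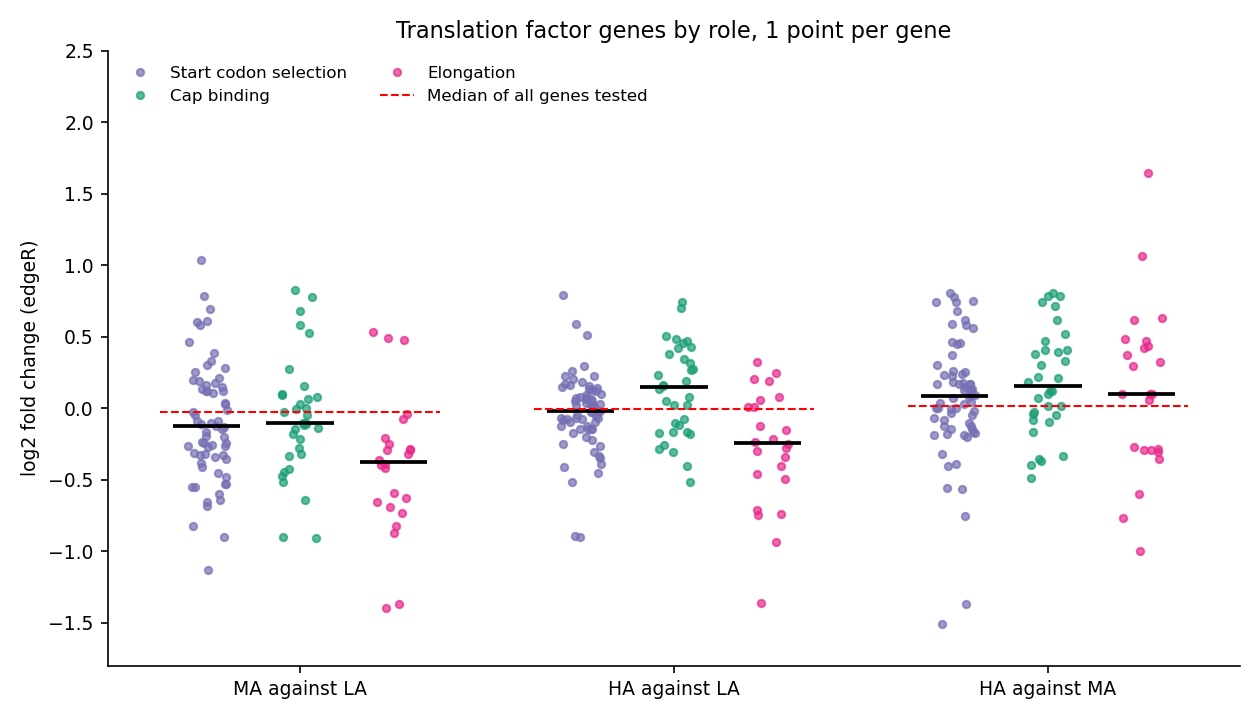
log2 fold changes from edgeR for the 124 tested genes, 1 point per gene, by role in each of the 3 comparisons, with black bars at the median of a role and a dashed line at the median of all genes tested. Elongation genes lie lowest in MA against LA (median -0.37) and in HA against LA (median -0.24).

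Most of that sum is 1 gene. eEF1A LOC113119292 stood at 4485, 4114 and 4236 FPKM in MA1 to MA3, against 6437, 5127 and 5375 in LA1 to LA3, a log2 fold change of -0.40 (SE 0.20) with an edgeR adjusted p of 0.484. In the HA libraries it was at 3770, 5681 and 4329 FPKM, overlapping both other diets. All MA levels were thus under the lowest LA level, and the gene did not pass the test. The small neighbour LOC113062124 on chromosome 44 averaged 5.28 ± 1.05 FPKM in the MA group and 8.51 ± 1.20 in the LA group (SD, n = 3 each), without overlap (log2 fold change -0.69, adjusted p = 0.330 in edgeR). Without LOC113119292, the other elongation genes summed to 3866, 3931 and 3664 FPKM in MA1 to MA3, against 5895, 4271 and 4762 in LA1 to LA3, also without overlap. On the deposited FPKM, without the TMM factor, this last sum was higher in MA2 than in LA2. The gap for the other elongation genes thus rests on the TMM scaling.

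eEF2 is the translocase that drives each step of the ribosome. Its leading gene LOC113049148 averaged 1447 ± 126 FPKM in the MA group and 1771 ± 293 in the LA group (SD, n = 3 each) at a log2 fold change of -0.29 (SE 0.22), and the groups overlapped. The minor gene LOC113045104 (chromosome 27) was at 8.76, 2.04 and 4.12 FPKM in MA1 to MA3, against 6.56, 18.7 and 13.3 FPKM in LA1 to LA3 (log2 fold change -1.37, edgeR adjusted p = 0.340). LA1 lay among the MA libraries for that gene, and leaving out single libraries moved the value between -2.06 (without MA1) and -0.996 (without MA2). Another eEF2 gene of chromosome 27, LOC113045234, was at 5.11, 17.8 and 11.4 FPKM in MA1 to MA3, against 7.18, 8.82 and 7.62 FPKM in LA1 to LA3, with its highest level in MA2. LOC113045235 and LOC113045105, also on chromosome 27, reached at most 0.661 and 0.399 FPKM.

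The exchange factors of eEF1A followed the same order of means. eEF1 beta, summed over its 2 genes, averaged 704 ± 117 FPKM in the MA group and 1009 ± 198 in the LA group (log2 fold change -0.52, edgeR adjusted p = 0.499; SD, n = 3 each). eEF1 gamma averaged 577 ± 43.7 and 666 ± 11.2 FPKM in these groups, without overlap, and a log2 fold change of -0.21 (edgeR adjusted p of 0.684). On the deposited FPKM the eEF1 gamma sum of MA2 lay above that of LA1, so this gap rests on the TMM scaling. eEF1 delta averaged 587 ± 38.5 FPKM in the MA group and 924 ± 418 in the LA group, and the spread of the LA group took in all MA libraries. Its log2 fold change of -0.73 was -0.31 without LA1, and the -0.52 of eEF1 beta was -0.36.

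eIF5A held the elongation gene with the smallest p in this comparison. LOC113042420 (chromosome 24, 16033308-16035898) was at 91.4, 78.5 and 97.4 FPKM in MA1 to MA3, against 64.4, 68.4 and 57.1 FPKM in LA1 to LA3. Every MA library was above every LA library, with a log2 fold change of 0.49 (SE 0.17, edgeR adjusted p = 0.318). The HA libraries were at 77.8, 69.1 and 71.8 FPKM, between the other diets. That place rests on the TMM scaling. On the deposited FPKM, HA1 at 88.9 lay above MA1 at 83.2, and HA2 at 63.6 lay below LA2 at 66.7. The leading eIF5A gene LOC113066161 on chromosome 49 had a log2 fold change of -0.29, so that eIF5A as a whole averaged 269 ± 18.8 FPKM in the MA group and 289 ± 22.9 in the LA group (SD, n = 3 each). The gene LOC113042386 averaged 10.8 ± 6.05 FPKM in the MA group and 19.1 ± 5.70 in the LA group, and LOC113114931 and LOC113045927 reached at most 5.79 and 1.24 FPKM.

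Among the cap-binding factors, the smallest p of any translation factor gene belonged to eIF4E type 3, a cap-binding relative of eIF4E. LOC113041105 (chromosome 23, 6033047-6039567) was at 14.01, 11.2 and 12.2 FPKM in MA1 to MA3, against 6.95, 7.73 and 6.44 FPKM in LA1 to LA3. The HA libraries, at 11.0, 8.63 and 8.82 FPKM, lay between the MA and LA libraries without overlapping either. On the deposited FPKM, without the TMM factor, HA1 was at 12.6, above MA2 at 12.4 and MA3 at 12.5. The gap between the HA and MA libraries thus rests on the TMM scaling. The log2 fold change of LOC113041105 in MA against LA was 0.82 (SE 0.19), with an adjusted p of 0.165 in edgeR and 0.00663 in DESeq2. This was the only call that DESeq2 made among the 124 genes in a pair of diets. Leaving out single libraries kept the log2 fold change between 0.73 and 0.89, so neither LA1 nor HA2 carried it. Summed over its 3 genes, eIF4E type 3 averaged 30.3 ± 1.18 FPKM in the MA group and 24.7 ± 4.04 in the LA group (SD, n = 3 each) with a log2 fold change of 0.29 (edgeR adjusted p of 0.597), since LOC113092479 and LOC113081188 had log2 fold changes of 0.00 and 0.03.

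eIF4E itself, the main cap-binding protein, had 3 copies above 0 and 3 below in MA against LA. LOC113112838 was at 3.53, 2.99 and 3.39 FPKM in MA1 to MA3, against 7.81, 5.00 and 5.70 FPKM in LA1 to LA3, and was chosen after its values were seen. The 6 genes together gave 19.3, 19.0 and 19.9 FPKM in MA1 to MA3, against 34.7, 18.7 and 24.0 FPKM in LA1 to LA3, a log2 fold change of -0.45 (edgeR adjusted p = 0.528) that was -0.19 without LA1. LA2 lay under all MA libraries, so the groups overlapped. The scaffold gene eIF4G3 LOC113111103 was at 0.913, 1.04 and 0.944 FPKM in the MA libraries, against 0.546, 0.485 and 0.776 FPKM in the LA libraries (log2 fold change 0.68, edgeR adjusted p = 0.2998). eIF4H LOC113061403, which aids the eIF4A helicase and is one of the most abundant cap-binding genes, differed little: 21.2 ± 1.30 FPKM in the MA group and 23.3 ± 1.48 in the LA group (SD, n = 3 each).

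**Figure D4:**
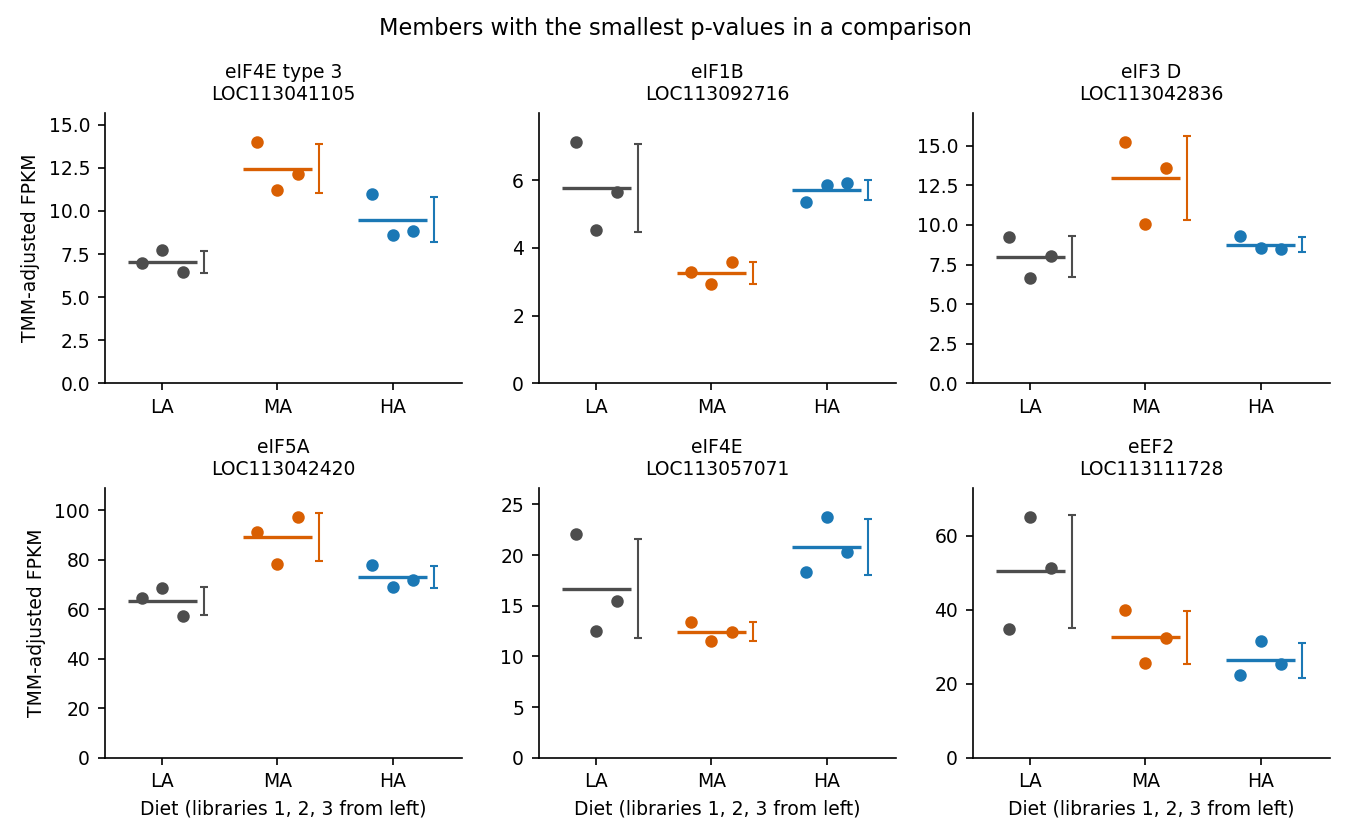
TMM-adjusted FPKM of 6 genes with a smallest p of their role in a comparison; points are libraries 1 to 3 of a diet from left to right, horizontal bars are means and error bars are SD (n = 3). eIF4E type 3 LOC113041105 has MA libraries of 11.2 to 14.01 FPKM, above HA libraries of 8.63 to 11.0 and LA libraries of 6.44 to 7.73, and eIF1B LOC113092716 has its 3 lowest values in the MA group.

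Of the factors that find the start codon, eIF1B and eIF3 D had the smallest p in MA against LA. The eIF1B gene LOC113092716 was at 3.29, 2.93 and 3.58 FPKM in MA1 to MA3, against 7.13, 4.54 and 5.66 FPKM in LA1 to LA3 (log2 fold change -0.82, SE 0.23, edgeR adjusted p = 0.238). It gave only 1.59% of eIF1B, whose leading gene LOC113119811 stood at 199 ± 17.5 FPKM in the MA group and 214 ± 9.04 in the LA group (SD, n = 3 each). eIF3 D, a subunit of the eIF3 scaffold that can itself bind a cap, had its minor gene LOC113042836 (chromosome 3, 1387805-1396103) at 15.2, 10.04 and 13.6 FPKM in MA1 to MA3, against 9.25, 6.66 and 8.07 FPKM in LA1 to LA3 (log2 fold change 0.70, SE 0.21, edgeR adjusted p = 0.257). The leading eIF3 D gene LOC113047009 had a log2 fold change of 0.04, and the 2 genes together one of 0.13.

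Copies of the scaffold subunit eIF3 B differed in sign. LOC113079567 was at 13.6, 11.3 and 10.7 FPKM in MA1 to MA3, against 16.4, 17.9 and 17.1 FPKM in LA1 to LA3 (log2 fold change -0.53), while LOC113050134 had 2.96, 5.33 and 4.24 FPKM in MA1 to MA3, against 3.29, 2.19 and 2.73 FPKM in LA1 to LA3 (0.61). Neither passed the test, with edgeR adjusted p-values of 0.342 and 0.396, and the eIF3 B sum had a log2 fold change of -0.17. eIF2, the carrier of the initiator tRNA, had its gamma gene LOC113042282 (chromosome 24) at 137, 158 and 149 FPKM in MA1 to MA3, against 212, 169 and 181 FPKM in LA1 to LA3. These did not overlap, at a log2 fold change of -0.34 and an edgeR adjusted p of 0.607. That gap rests on the TMM scaling. On the deposited FPKM, MA2 at 174.9 lay above LA2 at 165.1 and LA3 at 174.0. Summed over copies, eIF2 beta and eIF3 H also lay lower in every MA library than in any LA library, with log2 fold changes of -0.20 and -0.34, and neither was called. On the deposited FPKM this held for eIF3 H, whereas the eIF2 beta sum of MA2 lay above every LA library.

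In all, 28 of 38 summed factors had a log2 fold change below 0 in MA against LA, including each of the 6 elongation factors, and the values ran from -0.73 (eEF1 delta) to 0.29 (eIF4E type 3). Without LA1, 22 of 38 were below 0. No factor passed the test on summed counts in edgeR, and none had an unadjusted p under 0.05 in MA against LA. DESeq2 called none of them either.

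The comparison of HA against LA asks the same of the diet with more Met. edgeR called 0 of the 124 genes, as of all genes (0%), and 3 genes were higher (2.74% of all genes) and 4 lower (3.48% of all genes) at an unadjusted p under 0.05. DESeq2 called none of them. The HA libraries lay above all LA libraries for 5 genes (5.16% of all genes) and below them for 5 (4.97% of all genes). The median log2 fold change was -0.0049 over the 124 genes and -0.01 over all genes, with 62 genes on each side of 0. Without LA1 the median was 0.15 and without HA2 it was -0.15, and with neither it was 0.03. The counts moved as well: without LA1 the higher count was 9, without LA3 or HA1 it was 0 and without HA3 it was 1, while the lower count was 9 without HA2, 2 without MA3 and 1 without LA2, LA3 or HA3.

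The smallest p in HA against LA was that of an eEF2 gene. LOC113111728 (chromosome 2, 1223019-1232121) was at 22.3, 31.6 and 25.3 FPKM in HA1 to HA3, against 34.7, 65.2 and 51.2 FPKM in LA1 to LA3, without overlap (log2 fold change -0.93, SE 0.27, edgeR adjusted p = 0.709). In the MA group it was at 39.8, 25.6 and 32.4 FPKM, so both supplemented diets had lower means than the LA group, and the MA and LA libraries overlapped. The gene gave 2.23% of eEF2 transcript. The minor eEF1A gene LOC113119291 was at 55.7, 53.6 and 53.1 FPKM in HA1 to HA3, against 59.8, 112 and 94.0 FPKM in LA1 to LA3 (log2 fold change -0.71, adjusted p = 0.716 in edgeR). LOC113062123, the larger eEF1A gene of chromosome 44, averaged 82.1 ± 14.5 FPKM in the HA group and 138 ± 63.7 in the LA group (SD, n = 3 each), at a log2 fold change of -0.74 and an edgeR adjusted p of 0.790, and the value was -1.03 without LA1 and -0.36 without LA2. For both of these minor eEF1A genes LA1 was the lowest LA library, while for the leading gene LOC113119292 it was the highest.

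Of the cap-binding genes, those of eIF4E type 3 again had the smallest p. LOC113081188 was at 13.4, 6.17 and 9.80 FPKM in HA1 to HA3, against 6.69, 5.04 and 5.84 FPKM in LA1 to LA3 (log2 fold change 0.74, edgeR adjusted p = 0.720), and HA2 lay within the LA range. Its value was 0.99 without HA2 and 0.44 without HA1. For LOC113041105, given above, the log2 fold change in HA against LA was 0.43 (adjusted p = 0.785 in edgeR). Summed, eIF4E type 3 was at 33.2, 30.1 and 30.6 FPKM in HA1 to HA3, against 29.1, 21.1 and 24.0 FPKM in LA1 to LA3. The groups did not overlap, and this sum had the largest log2 fold change of any factor in HA against LA, 0.34 (SE 0.18, edgeR adjusted p = 0.854). eIF5B, the GTPase that joins the large subunit, had its gene LOC113098227 at 1.06, 0.894 and 0.843 FPKM in HA1 to HA3, against 0.610, 0.652 and 0.600 FPKM in LA1 to LA3 (log2 fold change 0.59, adjusted p = 0.717 in edgeR).

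The comparison of HA against MA isolates the higher Met. edgeR called 0 of the 124 genes (0.0543% of all genes). At an unadjusted p under 0.05, 10 were higher in the HA group (5.2% of all genes) and 4 lower (4.84% of all genes), and DESeq2 called none. For 15 genes all HA libraries lay above all MA libraries (9.2% of all genes), and for 8 they lay below them (8.55% of all genes). The median log2 fold change was 0.10 over the 124 genes and 0.02 over all genes. Without HA2 it was -0.03. Without HA2 or HA3 the higher count was 5, and without MA2 or MA3 it was 4, while the lower count was 2 without MA1 or HA2 and 1 without HA3. With the 3 diets tested together, edgeR called 0 of the 124 genes (0.0793% of all genes), 11 had an unadjusted p under 0.05 (10.8% of all genes) and DESeq2 called 1, LOC113041105 (2.27% of all genes).

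Of the summed factors, the cap-binding protein eIF4E had the smallest p in HA against MA. Its leading gene LOC113057071 (chromosome 38, 11685890-11689407) was at 18.3, 23.8 and 20.3 FPKM in HA1 to HA3, against 13.4, 11.5 and 12.4 FPKM in MA1 to MA3 (log2 fold change 0.74, SE 0.23, edgeR adjusted p = 0.334). The LA libraries, at 22.1, 12.5 and 15.5 FPKM, spanned both. Summed over its 6 genes, eIF4E was at 24.8, 35.6 and 27.5 FPKM in HA1 to HA3, against 19.3, 19.0 and 19.9 FPKM in MA1 to MA3, a log2 fold change of 0.63 (SE 0.25), at 0.47 without HA2. This was the only 1 of the 38 summed factors with an unadjusted p under 0.05 in this comparison (edgeR adjusted p = 0.425). Of all genes, 5.2% were higher and 4.84% lower at that unadjusted p. The scaffold eIF4G1 summed to 17.4, 16.9 and 16.7 FPKM in HA1 to HA3, against 14.1, 11.5 and 12.2 FPKM in MA1 to MA3, without overlap and with a log2 fold change of 0.39 (adjusted p = 0.671 in edgeR).

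The remaining genes with the smallest p in HA against MA repeated genes already met. eIF1B LOC113092716 was at 5.36, 5.87 and 5.90 FPKM in HA1 to HA3, against 3.29, 2.93 and 3.58 FPKM in MA1 to MA3 (log2 fold change 0.80, edgeR adjusted p = 0.310). eIF3 B LOC113050134 was at 2.33, 2.72 and 2.37 FPKM in HA1 to HA3, below every MA library, with a log2 fold change of -0.76 (adjusted p = 0.362 in edgeR). For eIF4E type 3 LOC113081188 the log2 fold change was 0.71, at 0.42 without HA1. For eEF2 LOC113045234 it was -0.997, and -0.52 without MA2, its highest library. The comparisons share libraries, so a gene that was low in the MA group counts in both MA against LA and HA against MA.

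The eEF1 delta genes showed how the libraries differed within a diet. LOC113112980 (chromosome 2) was at 140, 362 and 242 FPKM in HA1 to HA3, against 137, 31.2 and 70.7 FPKM in MA1 to MA3 (log2 fold change 1.64, SE 0.64, edgeR adjusted p = 0.423), and at 370, 78.7 and 178 FPKM in LA1 to LA3. Leaving out single libraries moved this value between 1.26 (without MA2) and 2.29 (without MA1). The LA group alone spanned most of the range of all 9 libraries. LOC113113032, on the same chromosome, was at 698 FPKM in LA1 and 687 in HA2 and at 150 to 448 FPKM in the other 7 libraries. In MA2, LOC113080265 was at 239 FPKM, its highest level, where LOC113096955 was at 25.4 and LOC113112980 at 31.2 FPKM, their lowest levels. Apart from LOC113112980, the eEF1 delta, eIF3 G and eIF1B genes shown for their spread between libraries were chosen after their values were seen.

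Copies with wide differences between the libraries of a diet were found in other factors as well. The eIF3 G gene LOC113072795 was at 0.257, 0.176 and 0.0623 FPKM in LA1, MA2 and HA2 and at 10.4, 8.33 and 6.41 FPKM in LA2, MA1 and HA1, with library 3 of each diet between them at 4.10 to 4.93 FPKM. The eIF3 G sum nevertheless stayed within 49.2 to 53.8 FPKM in all 9 libraries, as a ratio the narrowest range of any factor. That narrowness rests on the TMM scaling. On the deposited FPKM the eIF3 G sum was lowest in LA1 and highest in HA1, at a wider ratio than the eEF1 gamma sum. The eIF1B gene LOC113119887 was at 83.7, 8.58 and 37.2 FPKM in LA1 to LA3, at 6.40, 48.5 and 30.3 FPKM in MA1 to MA3 and at 10.2, 81.4 and 51.0 FPKM in HA1 to HA3. Here too library 3 of each diet was in the middle, while the leading eIF1B gene LOC113119811 varied from 185 to 239 FPKM. On the deposited FPKM that leading gene ran from 168.7 in MA1 to 272.8 in HA1.

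**Figure D5:**
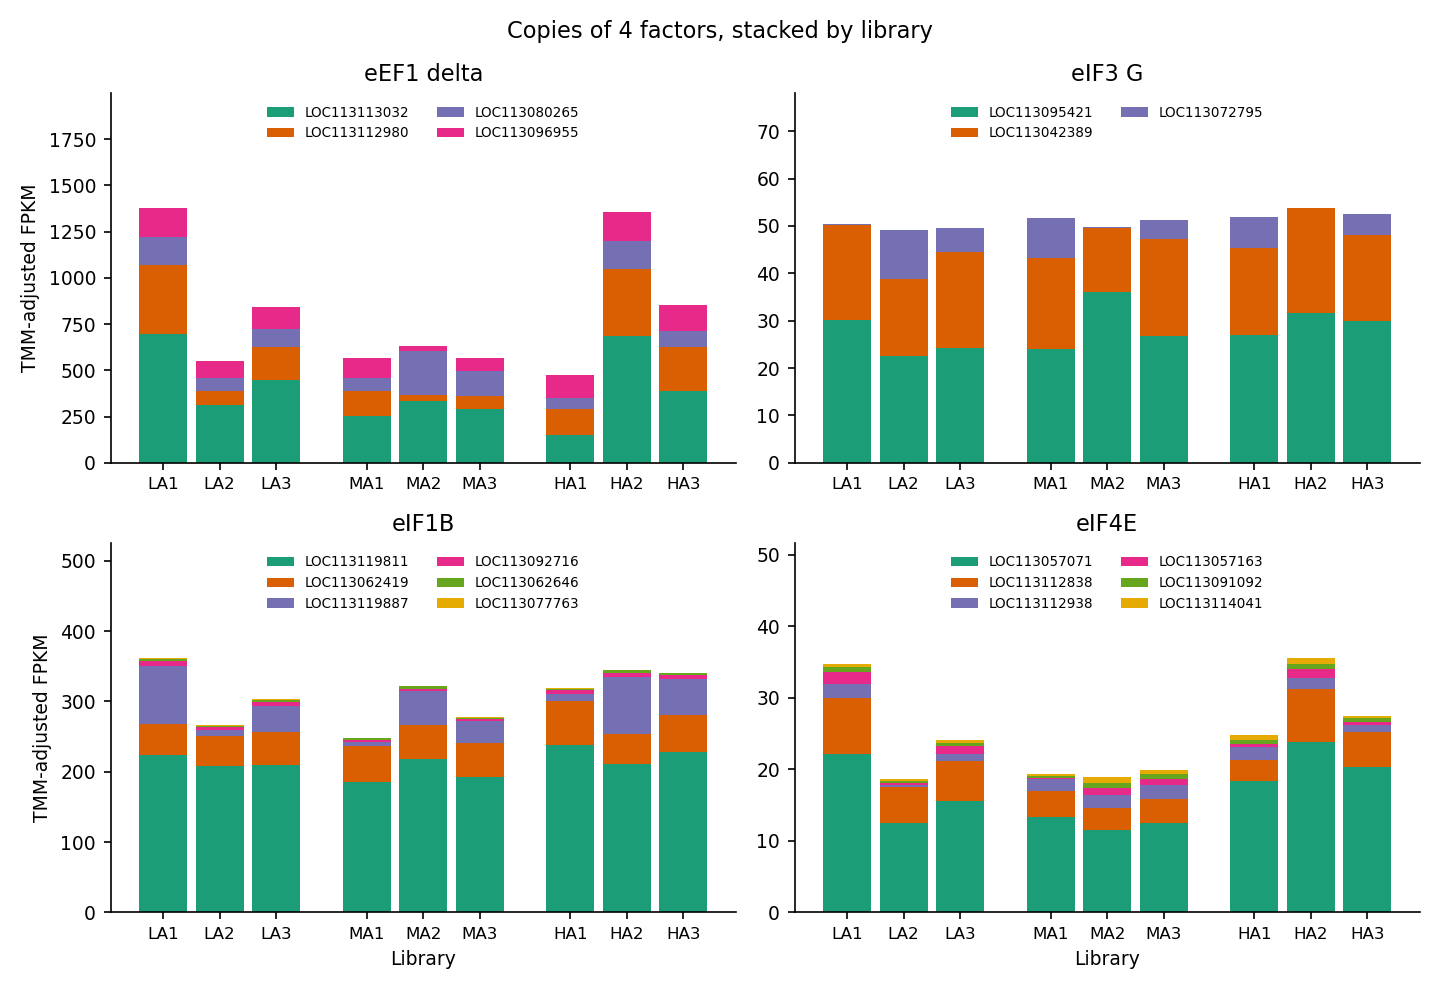
TMM-adjusted FPKM of the tested copies of eEF1 delta, eIF3 G, eIF1B and eIF4E, stacked in each of the 9 libraries, so that the height of a bar is the sum over copies. The eIF3 G bars stay between 49.2 and 53.8 FPKM although LOC113072795 nearly vanishes in LA1, MA2 and HA2, whereas the eEF1 delta bars of LA1 and HA2 reach 1377 and 1358 FPKM.

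Over the 33 factors with at least 2 tested copies, the sum varied less within diets than the median copy in 32 of them. The median within-diet SD was 0.35 (log2) for copies and 0.20 for sums. A sum averages over its copies and is led by the most abundant, so a smaller SD is likely in any case. Whether copies exchanged reads was not tested. Over the 9 libraries, 69 of 124 genes differed by at least 2-fold between their highest and lowest library and 24 by at least 4-fold. The shares over all genes were not computed for these counts. The median within-diet SD was 0.34 (log2) over the 124 genes, against 0.47 over all genes tested. Libraries 1 and 2 of a diet differed at least 2-fold for 15.3% to 27.4% of 124 genes, against 21.9% to 34.3% of all genes. Of the summed factors, 7 of 39 differed by at least 2-fold over the 9 libraries. That count takes in eIF4E-1B, which had no tested copy and was at 0 in LA2. Near-identical copies can exchange reads in counting, and how reads with several places were treated is not given in the sources used here, so the level of a single copy is more uncertain than that of its factor. LA1 and HA2 were the 2 highest libraries for 48 of the 124 genes (38.7%), against 14.8% of all genes tested, and for 26 of 38 summed factors. They were the 2 lowest for 6 genes (4.84%), against 13.7% of all genes. What LA1 and HA2 share was not tested.

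Genes that act on these factors were counted by lists of descriptions, and none of their members passed the edgeR test in any comparison. Of the 4E-binding proteins, which block eIF4E, 10 of 11 were tested, 3 were higher in MA against LA at an unadjusted p under 0.05 (5.3% of all genes) and 2 were lower in HA against MA (4.84% of all genes). LOC113076888, described as 4E-binding protein 3, was at 4.11, 4.92 and 5.97 FPKM in MA1 to MA3, against 2.63, 0.576 and 1.47 FPKM in LA1 to LA3 (log2 fold change 1.69, SE 0.43, edgeR adjusted p = 0.204). In the HA libraries it stood at 4.34, 4.08 and 4.16 FPKM, also above every LA library (log2 fold change 1.43, adjusted p = 0.709 in edgeR). A further 4E-binding protein 3 gene, LOC113038536, was at 3.29, 3.34 and 5.06 FPKM in MA1 to MA3, against 1.91, 1.91 and 1.54 FPKM in LA1 to LA3 and 2.36, 1.11 and 1.69 FPKM in HA1 to HA3. The list as a whole summed to 78.1 to 84.8 FPKM in the MA group, within the LA range of 66.2 to 88.6, since its other members are more abundant.

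Of the 12 genes of eIF2B, which recharges eIF2 with GTP, 3 were higher in MA against LA at an unadjusted p under 0.05 (5.3% of all genes) and 1 was lower in HA against MA (4.84%). The smallest p was that of a delta subunit gene that its description marks as low quality, LOC113063244 (log2 fold change 1.56, edgeR adjusted p = 0.244). The list median was 0.07. The 7 eIF2 alpha kinase genes gave 1 lower gene in MA against LA (6.18% of all genes), LOC113111780 (log2 fold change -0.68, adjusted p = 0.314 in edgeR), described as kinase 1. The same gene was the 1 higher gene of this list in HA against MA (5.2% of all genes), with a log2 fold change of 0.59 (edgeR adjusted p = 0.433). The targets of the integrated stress response, the program that phosphorylated eIF2 sets off, had 18 of 20 genes tested, 6 above 0 and 12 below in MA against LA, and a median of -0.18. In HA against MA, 14 were above 0 and 4 below, with a median of 0.18. The list summed to 390, 192 and 264 FPKM in LA1 to LA3, and its median without LA1 was not computed. In HA against LA the 1 gene of this list with an unadjusted p under 0.05 (2.74% of all genes were higher) was LOC113075908, DNA damage-inducible transcript 4, an inhibitor of mTORC1 (log2 fold change 1.04, edgeR adjusted p = 0.709). LOC113075908 was also the 1 higher gene of this list in HA against MA (5.2% of all genes). Its log2 fold change there was 0.94 (edgeR adjusted p = 0.363). Deoxyhypusine synthase (dhps), which starts the hypusine modification of eIF5A, had a log2 fold change of 0.86 in HA against LA (adjusted p = 0.709 in edgeR).

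Poly(A)-binding proteins, which join the mRNA tail to eIF4G, had 8 of 13 genes tested, of which 2 were higher in MA against LA (5.3% of all genes) and 3 lower in HA against MA (4.84%) at an unadjusted p under 0.05. The 8 release factor genes gave 1 lower gene in HA against LA (3.48% of all genes), and the 6 genes of the diphthamide modification of eEF2 gave 1 higher gene there (2.74%). The 2 eEF2 kinase genes, 5 PDCD4 genes, 5 PAIP genes, 7 mitochondrial factor genes and 11 eIF4A genes gave none in any comparison, and of the 2 eEF1 epsilon genes 1 was lower in MA against LA (6.18% of all genes). The median log2 fold change in MA against LA over these lists lay between -0.58 (eEF1 epsilon) and 0.09 (the mitochondrial and hypusine lists), with -0.13 for eIF4A, beside -0.03 over all genes.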

How the data were processed

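Muscle libraries of HCC on the LA, MA and HA diets (3 each) were analysed from the table deposited by the authors. It gives for each gene a raw read count per library and FPKM, which the authors computed from these counts and the listed gene length (recomputed here with a largest relative deviation of 3.63e-14). Gene models carry identifiers of the goldfish assembly ASM336829v1, and all 141 genes matched RefSeq. The aligner, counter, strand setting and treatment of reads with several places are not given in any source used here.

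Counts were tested in R 4.3.3 with edgeR 4.0.16 (TMM factors, filterByExpr, quasi-likelihood test, all 9 libraries in 1 fit, Benjamini-Hochberg over 23946 genes, adjusted p under 0.05). DESeq2 1.42.0 and limma 3.58.1 served as alternatives, and counts were also summed over the copies of a factor. The procedure was tested on simulated data for MA against LA with 23101 genes, where it recovered 14% of genes changed by a log2 fold of 1, 64% at 2 and 92% at 3. Small changes would thus mostly be missed at this depth and spread.

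Genes were named by rule: in each role, the 2 of highest mean FPKM and the 2 of smallest p in each comparison, all tested copies of eEF1A, eEF2 and eIF5A, every called gene, and from each pathway list the called genes and up to 2 of smallest p. The genes and lists were chosen with earlier results of these data known, and the eIF4A list was added after the descriptions had been read.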

Additional observations from a re-analysis of the deposited data

How the results depend on the processing

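edgeR called none of the 124 genes in any pair of diets under any alternative tried, with other size factors, other filters on low counts, only the compared diets, single libraries left out, LA1 and HA2 both left out, or libraries 1 and 2 of each diet alone, and limma on log2(FPKM + 1) and log2(FPKM + 0.1) called none either. DESeq2 called 1 gene, LOC113041105, in MA against LA and 1, the same gene, in the 3 diets together. With neither LA1 nor HA2, edgeR called 1 gene, LOC113081188, in the 3 diets together. The share over all genes was not computed for that test. In the pairs of diets the same fit also called more of all genes than the main fit, as given below. The cause was not tested. No summed factor was called under any alternative.

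Over all genes the counts depended on the setting. DESeq2 called 440, 48 and 296 genes in MA against LA, HA against LA and HA against MA, where edgeR called 20, 0 and 13. Without LA1 edgeR called 293, 175 and 35, with neither LA1 nor HA2 542, 219 and 75, and without a filter on low counts 542, 119 and 321. Leaving out single libraries moved the median log2 fold change of the 124 genes between -0.24 and -0.01 in MA against LA, between -0.15 and 0.15 in HA against LA, and between -0.03 and 0.19 in HA against MA. On the deposited FPKM, whose library sizes were not rescaled, limma with a pseudocount of 0.1 gave medians of -0.05, 0.13 and 0.11, beside 0.09, 0.13 and 0.04 over all genes. Of 1645 values of named genes under the alternatives, 1582 kept their sign and 63 did not.

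The replicate numbers do not pair the libraries: deviations from the diet means correlated between -0.60 and 0.27 for libraries of the same number. The order of the shares of reads mapped, given above, runs across these numbers and was not fitted as a block. With the replicate number as a block, edgeR called 4, 0 and 0 of all genes and 0 of the 124 genes in each comparison, and the medians were -0.17, -0.02 and 0.09.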

Other observations

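The neighbouring genes held further differences between the diets that edgeR did not call. Deoxyhypusine synthase (dhps) was at 4.31, 2.19 and 3.79 FPKM in HA1 to HA3, against 1.97, 1.78 and 1.94 FPKM in LA1 to LA3, without overlap. The MA libraries, at 2.08, 1.90 and 2.71 FPKM, overlapped both. The eEF2 kinase gene LOC113111911, whose product slows elongation by phosphorylating eEF2, was at 29.8, 35.4 and 29.7 FPKM in HA1 to HA3. It was at 24.6, 15.8 and 18.3 FPKM in MA1 to MA3, with a log2 fold change of 0.69 and an edgeR adjusted p of 0.525. The LA libraries, at 33.4, 13.1 and 18.0 FPKM, overlapped both. For the more abundant eEF2 kinase gene LOC113056313 the HA and MA libraries overlapped, at 38.8, 57.1 and 46.7 FPKM in HA1 to HA3 and 53.2, 19.0 and 33.2 FPKM in MA1 to MA3. The poly(A)-binding protein gene LOC113119188 was at 12.7, 9.53 and 11.3 FPKM in MA1 to MA3, against 0.885, 5.92 and 4.04 FPKM in LA1 to LA3 (log2 fold change 1.63, edgeR adjusted p = 0.389). In HA1 to HA3 it was at 5.83, 1.05 and 4.26 FPKM, within the LA range. This gene is a small part of its list. The poly(A)-binding protein genes together summed to 264.6 to 482.6 FPKM in the MA group and 366.1 to 623.5 in the LA group. In MA against LA, 3 of the 8 tested genes were above 0 and 5 below.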
